A study of Homo sapiens with 2 samples.

Results

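Isolated oestrogen receptor α (ERα) binding sites were examined in T47D cells, an established receptor-positive human breast cancer line. A peak is a stretch of the genome where DNA recovered with the receptor was enriched over input DNA. A peak was called isolated when no other listed peak on its chromosome had its centre within 200 kb. Of the 12688 listed peaks, 12355 lay on chromosomes 1 to 22, and 1393 of these were isolated (11.3%, Wilson 95% interval 10.7 to 11.8%). The remaining 10962 autosomal peaks are called other peaks.

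The study holds 1 library of ERα chromatin, recovered with the H-20 antibody, and 1 input library without antibody. Both came from T47D cells grown for 48 h without steroids and then given 10 nM 17β-estradiol for 45 min. All values therefore describe occupancy after estradiol, with no untreated group and no replicate error. The members were chosen from the positions in the same peak list that gives their scores and widths, so every comparison of them is a description without a test. The intervals given hold counting error alone and take the peaks as independent, which neighbouring peaks are not. Read depth is unknown.

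ERα is a nuclear receptor that estradiol turns into an active transcription factor. It binds DNA directly at oestrogen response elements, or through other factors, and in breast cancer cells many of its sites lie far from gene starts, in enhancers where factors such as FOXA1 open the chromatin. Receptor sites are often grouped around strongly responsive genes, and a site without neighbours is the opposite case. Neither hg19 sequence nor an hg19 gene annotation was used here, so no isolated peak is assigned to a gene or a motif.

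Isolated ERα peaks scored lower than the other peaks. The score is the number the authors' peak caller gave each peak. The scale of this score is not stated, and it was used only to rank peaks within this list. The isolated peaks ran from 50.02 to 2960.31, with quartiles of 62.4 and 202.3 and a median of 94.0 (exact binomial 95% interval of the median 89.4 to 101.3). The other peaks ran from 50 to 3230.05, with quartiles of 72.0 and 380.7 and a median of 133.8 (129.6 to 137.8). The ranges overlapped over almost their whole length, and the medians differed by -39.8.

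The low end of the scale held more of the isolated peaks. A score under 100 was given to 725 of 1393 isolated peaks (52.0%, 49.4 to 54.7%) and to 39.9% (39.0 to 40.8%) of the other peaks, against 41.2% of all autosomal peaks. At or above the autosomal median of 127.5 stood 537 isolated peaks (38.5%, 36.0 to 41.1%) and 51.5% (50.6 to 52.4%) of the others, where the whole list gives 50%. By rank among the 12355 autosomal peaks, where rank 1 is the highest score, the median isolated peak stood at 7559 and the median other peak at 5993.

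High scores were also rarer among the isolated peaks. A score of 1000 or more was reached by 50 isolated peaks (3.59%, 2.73 to 4.70%) and by 1265 other peaks (11.5%, 10.96 to 12.15%), with 10.6% over all autosomal peaks. Of these 50, 21 scored under 1500, 19 from 1500 to under 2000, 7 from 2000 to under 2500, and 3 higher. The 500 best-ranked autosomal peaks included 5 isolated ones, and the best 1000 included 36. Peaks with a score of at least 3100, a value that many peaks of the list share exactly, are called strong here. None of the 1393 isolated peaks was strong, a count of 0 with a Wilson 95% interval of 0 to 0.275%. The other peaks held all 265 strong autosomal peaks (2.42%, 2.15 to 2.72%), and 2.14% of all autosomal peaks were strong.

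**Figure D1:**
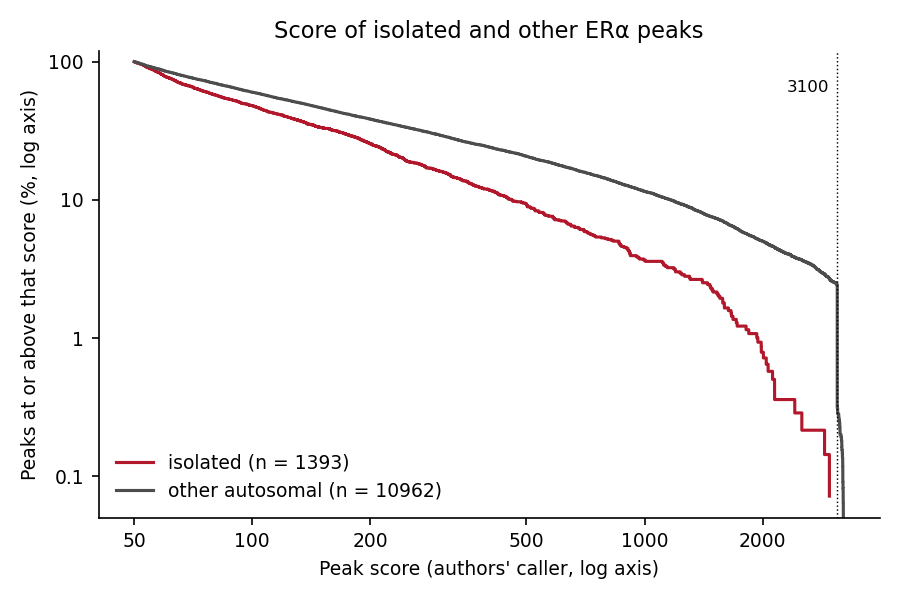
Share of peaks (%, log axis) at or above each score (log axis) for the 1393 isolated and the 10962 other autosomal peaks, with a dotted line at 3100. The curve of the isolated peaks lies below that of the others across the range above the lowest scores and ends at 2960.31, before the line.

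The share of isolated peaks was lowest among the highest scores. When the autosomal list was divided into deciles by score, 14.97% (13.1 to 17.1%) of the peaks in the lowest decile and 17.4% (15.4 to 19.6%) in the second-lowest were isolated, the latter with scores of 56.2 to 64.5. In the highest decile, with scores from 1073.7, the share was 3.96% (3.01 to 5.20%). The deciles did not form a strict order: the seventh, from 177.3 to 270.8, held 12.9% (11.1 to 14.9%) and the sixth 10.5% (8.94 to 12.4%), with overlapping intervals.

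The 10 highest-scoring isolated peaks lay on 7 chromosomes and were 521 to 1334 bp wide. The first was chr1:152715107-152716308 in hg19, with a score of 2960.31, and 293 autosomal peaks scored higher. Its neighbours stood 350.1 kb before it and 621.1 kb after it, with scores of 51.92 and 204.62. The second was chr2:129861435-129862435, with a score of 2877.38. One of its neighbours, 810.5 kb away, scored 3100, and the other, 655.3 kb away, scored 61.41. The third was chr10:12192104-12192673, with a score of 2518.13 and neighbours at 252.0 and 246.0 kb that scored 56.47 and 65.05. All 3 had 11 or more other peaks within 1 Mb, counting both sides together. The median of this count was 5 for isolated peaks and 15 for other peaks. A high score without a close neighbour therefore also occurred in surroundings fuller than those of the median isolated peak.

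Chromosome 7 held 3 of these 10 peaks and, with 8, more of the 50 isolated peaks that scored 1000 or more than any other autosome. It had 99 isolated peaks in all, and 3.59% of all isolated peaks scored 1000 or more. The count of 8 is small and the highest of 22, so it is not read as a trait of the chromosome. The peak at chr7:50838503-50839478 scored 2415.68 and had neighbours at 1911.8 and 579.5 kb that scored 54.25 and 70.98. At chr7:92237803-92238323 the score was 2120.18 and both neighbours were themselves isolated. The peak at chr7:62501661-62502379 scored 2009.33 and had no other peak within 1 Mb. It stood at the edge of a stretch of 5077.7 kb without a listed peak on one side and 1418.4 kb from the next peak on the other. Unsequenced stretches, where no peak can be listed, were not taken out of this or any other distance.

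The rest of the 10 lay on chromosomes 20, 14 and 11. The peak at chr20:3049524-3050078 scored 2146.39 and that at chr14:60085584-60086358 scored 2145.21, with nearest neighbours at 300.8 and 257.8 kb. On chromosome 11 the peak at 133084830 to 133086163 scored 2066.05 between neighbours of 51.36 and 51.69. The other, at 114575640 to 114576509, scored 2043.39 and had 23 other peaks within 1 Mb. Of the 20 neighbours flanking these 10 peaks, 13 scored under 100 and 1 was strong. Among all autosomal peaks 41.2% scored under 100. The share was 53.0% (43.3 to 62.5%) for the 100 neighbours of all isolated peaks at 1000 or more, which include these 20. For neighbours of isolated peaks under 100 it was 47.1% (44.6 to 49.7%). At 100 to 500 it was 48.4% (45.4 to 51.4%), and at 500 to 1000 it was 43.9% (36.4 to 51.8%). These intervals overlap, so such neighbours are not read as a trait of the high-scoring isolated peaks.

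High-scoring isolated peaks did not have higher-scoring neighbours by the median. The 100 neighbours of the 50 isolated peaks with a score of 1000 or more had a median score of 89.5 (73.1 to 127.5). For isolated peaks under 100 the 1438 neighbours had a median of 106.0 (100.7 to 114.4), and the intervals overlapped. A peak between 2 isolated peaks is counted as a neighbour of both.

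The strong peaks that came nearest to isolation were few. Of the 265 strong autosomal peaks, 209 (78.9%) had another peak within 10 kb, against 41.3% of all autosomal peaks, and the median distance of a strong peak to its nearest neighbour was 2.54 kb. Only 3 stood more than 100 kb from any other peak. The farthest was chr3:164352425-164353137, with a score of 3100, 197.7 kb from a neighbour that scored 94.87 and 920.8 kb from one that scored 63.26. It missed the 200 kb rule narrowly. The others were chr6:120462577-120463643, 173.8 kb from its neighbour, and chr17:56716660-56718379, 121.5 kb from a neighbour that scored 52.11. These 3 were singled out after their values were seen.

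The absence of strong peaks depended on which small peaks counted as neighbours. When only peaks scoring at least 100 were kept, 1270 of 7260 were isolated and 10 of them were strong (0.787%, 0.428 to 1.44%), the 3 peaks just named among them. All 265 strong autosomal peaks were among the 7260 kept, so the share to set beside 10 of 1270 is 265 of 7260. The 2.14% of all autosomal peaks that were strong was counted before this filter, over more peaks. When peaks with edges within 2 kb were first joined, 4 of 1475 isolated units were strong (0.271%, 0.106 to 0.695%). They were chr12:102090531-102092728, which joins 3 peaks and has a top score of 3214.31, chr10:128606219-128607567 and chr4:1237854-1240644 with 2 peaks each, and chr6:83277291-83280699 with 3. These last 3 units had a top score of 3100. The share of strong units over all 10786 joined units was not computed, so these 4 are listed without a comparison.

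Joining peaks within 10 kb separated lone peaks from lone groups. It gave 1589 isolated units, of which 1396 were single peaks and 193 held 2 to 7 peaks. None of the single peaks was strong, whereas 11 of the 193 groups held a strong peak (5.70%, 3.21 to 9.92%). Shares were higher in units that were not isolated: 53 of 5760 single peaks (0.920%, 0.704 to 1.20%) and 189 of 1735 groups (10.9%, 9.51 to 12.4%). The intervals of the isolated and the other groups overlapped. The median top score was 94.0 (89.4 to 101.4) for the single peaks and 359.7 (287.1 to 498.7) for the groups. Among units that were not isolated, the corresponding medians were 109.5 (106.2 to 113.3) for single peaks and 588.1 (510.1 to 665.9) for groups. A group has several chances to contain a high score, which a single peak does not, and separate sites cannot be told from 1 site listed as several peaks.

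Most of the fall in score with distance was complete well inside 200 kb. Peaks with their nearest neighbour within 2 kb had a median score of 178.7 (167.4 to 195.3), and those 10 to 50 kb away 122.0 (116.0 to 128.6). At 50 to 100 kb the median was 96.7 (92.2 to 104.8), and at 100 to 200 kb it was 98.0 (90.8 to 104.4). Isolated peaks 200 to 300 kb from their neighbour had a median of 103.3 (91.9 to 114.0), and those over 1000 kb away 88.7 (65.3 to 120.03). All 2545 peaks with their neighbour between 50 and 200 kb away had a median of 97.2 (93.0 to 102.9), which overlaps the interval of the isolated peaks. They included 7 strong peaks (0.275%, 0.133 to 0.567%), against 0 of the 1393 isolated peaks (0 to 0.275%), and these intervals overlapped. Within the isolated peaks, the Spearman correlation of score and distance across the 1393 peaks was -0.047.

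**Figure D2:**
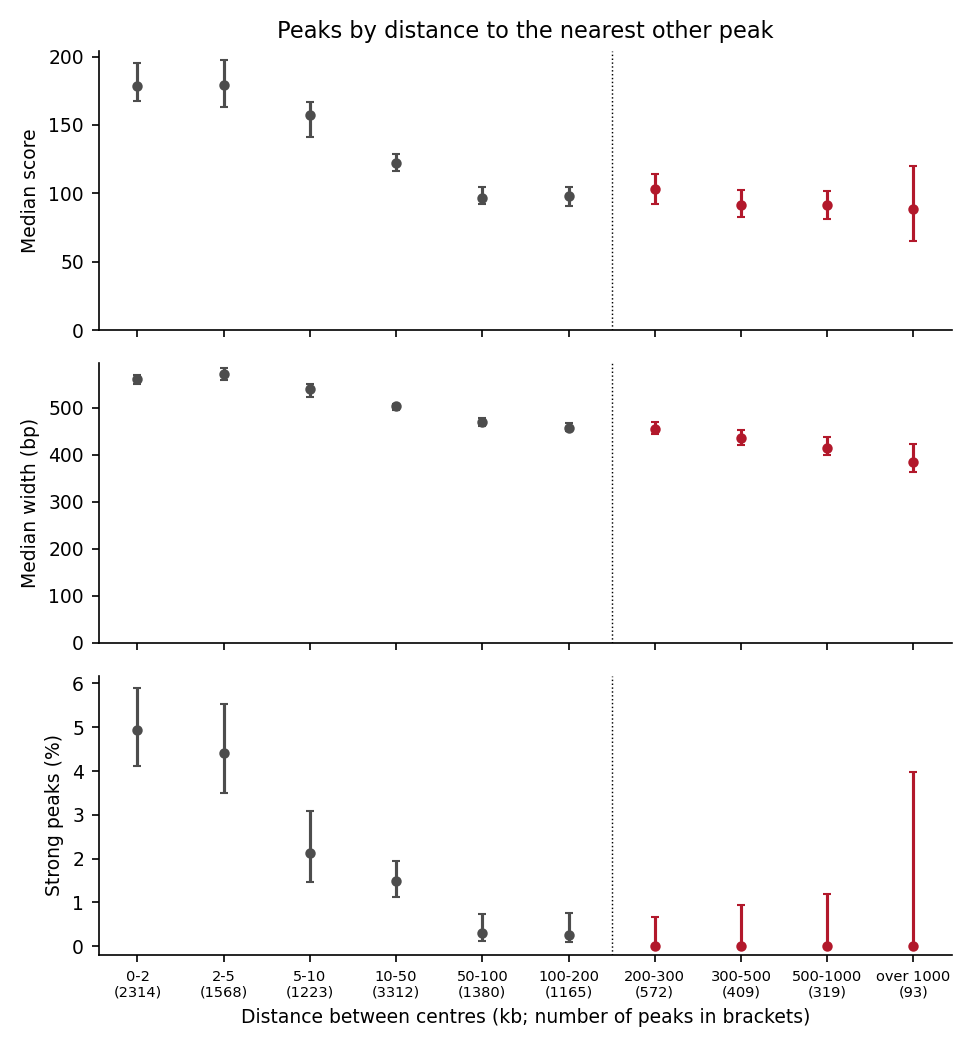
Median score, median width (bp) and share of strong peaks (%) of autosomal peaks by the distance of the nearest other centre (kb), with 95% intervals, isolated peaks to the right of the dotted line. The median score goes from 178.7 within 2 kb to 96.7 at 50 to 100 kb and stays between 88.7 and 103.3 beyond, while the median width goes on to 385 bp.

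**Figure D3:**
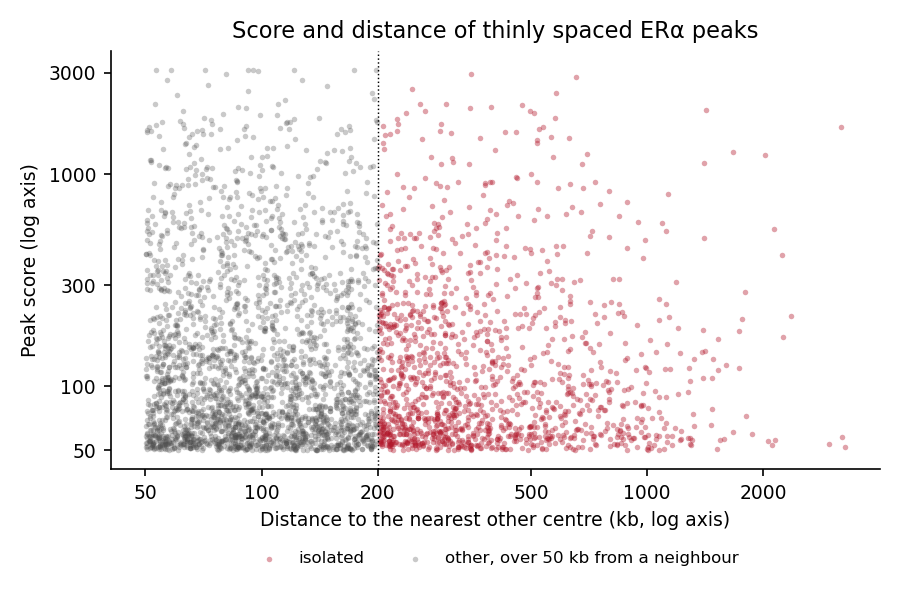
Score of single peaks (log axis) against the distance to the nearest other centre (kb, log axis) for peaks over 50 kb from a neighbour, with isolated peaks to the right of the dotted line at 200 kb. Low scores are the most frequent at all distances, and the row of points at 3100 ends before the line.

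Scores on the 2 sides of the 200 kb limit were close. The 86 isolated peaks at 200 to 210 kb had a median score of 101.0, and the 79 peaks at 190 to 200 kb one of 105.0. Just inside lay chr12:53752556-53753120 at 200.8 kb with a score of 360, chr12:57915816-57916437 at 201.1 kb with 216.97, and chr14:55368564-55369275 at 201.3 kb with 146.81. Just outside lay chr6:47314537-47315091 at 199.9 kb with a score of 135.61. Next came chr9:139022671-139023112 and chr5:132584927-132585661, both at 199.8 kb, with 92.09 and 582.92.

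Isolated peaks were also narrower. Their median width was 437 bp (428 to 445), with quartiles of 364 and 534 bp, against 516 bp (512 to 520) and quartiles of 421 and 664 bp for the other peaks. The other peaks with the most distant neighbours were close to them in width: the median was 458 bp (450 to 468) at 100 to 200 kb, and 454.5 bp (444 to 469) for isolated peaks at 200 to 300 kb. A width under 400 bp was found in 37.8% (35.3 to 40.3%) of the isolated and 19.6% (18.8 to 20.3%) of the other peaks. At the other end, 19 isolated peaks (1.36%, 0.875 to 2.12%) were at least 1000 bp wide, against 6.05% (5.62 to 6.51%) of the others.

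The difference in width was present within deciles of the score. Width and score rose together among isolated peaks (Spearman correlation 0.580 across 1393 peaks) and among other peaks (0.628). In all 10 deciles of the score the isolated peaks had the lower median width, by 25.5 to 154 bp, and in 8 deciles the intervals did not overlap. In the second-lowest decile the medians were 375 bp for isolated and 407.5 bp for other peaks, and in the highest they were 661 and 815 bp. The highest decile is wide and its score is not matched, since it holds all the strong peaks. For scores from 1000 to under 2000, the medians were 630.5 bp (596 to 728) for 40 isolated peaks and 730.5 bp (715 to 744) for 714 others, and these intervals overlapped. Width also fell with distance within the isolated peaks, though weakly (Spearman correlation -0.126 across 1393 peaks). The median went from 454.5 bp (444 to 469) at 200 to 300 kb to 385 bp (363 to 423) at over 1000 kb.

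**Figure D4:**
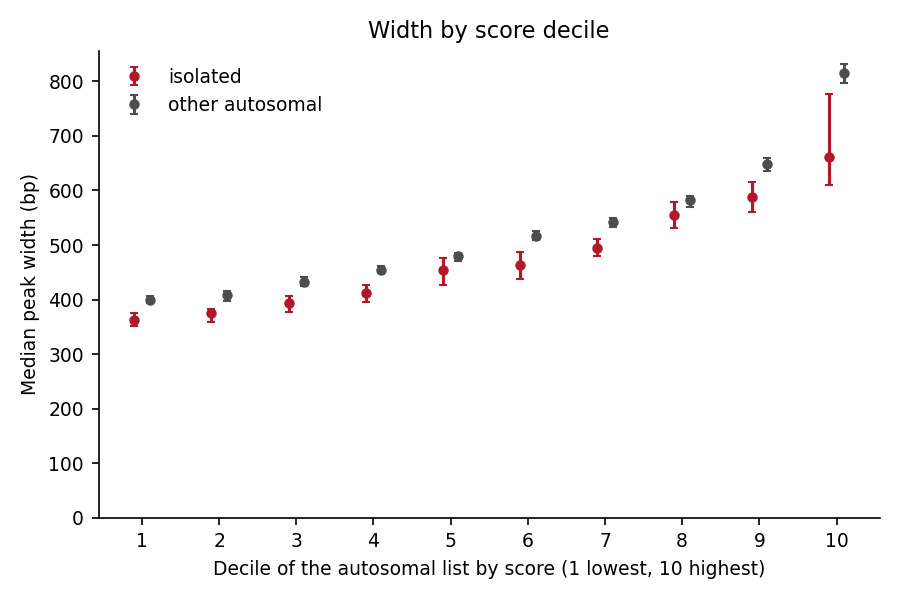
Median width (bp) with 95% intervals of isolated and other autosomal peaks in each decile of the autosomal list by score, from lowest (1) to highest (10). The isolated peaks lie lower in all 10 deciles, with 661 against 815 bp in the highest.

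The widest isolated peaks were not the highest-scoring ones. The widest, chr5:9969-11972, was 2004 bp wide with a score of 234.22, and it was the first peak of its chromosome. The next was chr17:164252-165991, 1740 bp wide with a score of 51.94, again the first peak of its chromosome. Both were singled out after their widths were seen. In all, 18 isolated peaks were the first or last of a chromosome and had a neighbour on 1 side only.

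The share of isolated peaks differed between chromosomes. Chromosome 4 had the highest share, 100 of 452 peaks (22.1%, 18.5 to 26.2%), followed by chromosome 18 with 41 of 189 (21.7%, 16.4 to 28.1%) and chromosome 13 with 53 of 261 (20.3%, 15.9 to 25.6%). These intervals overlap. Chromosome 16 had the lowest share, 19 of 520 (3.65%, 2.35 to 5.64%), and chromosome 17, the densest, had 34 of 646 (5.26%, 3.79 to 7.26%), which overlaps it. Chromosome 2 carried the most isolated peaks, 134, and chromosome 1 had 119.

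A larger distance between peaks is what the rule selects, which favours a larger share on sparse chromosomes, so the order is no finding of its own. Across the 22 autosomes the share went with the peaks per Mb at a Spearman correlation of -0.964. Density did not fix the share alone: chromosomes 11 and 16 had 5.73 and 5.76 peaks per Mb but 8.27% (6.53 to 10.4%) and 3.65% of isolated peaks. The number of isolated peaks per Mb varied less, from 0.210 on chromosome 16 to 0.622 on chromosome 7, while all peaks varied from 2.27 per Mb on chromosome 13 to 7.96 on chromosome 17. Lengths include unsequenced stretches, and copy number in T47D cells was not corrected beyond the authors' input.

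**Figure D5:**
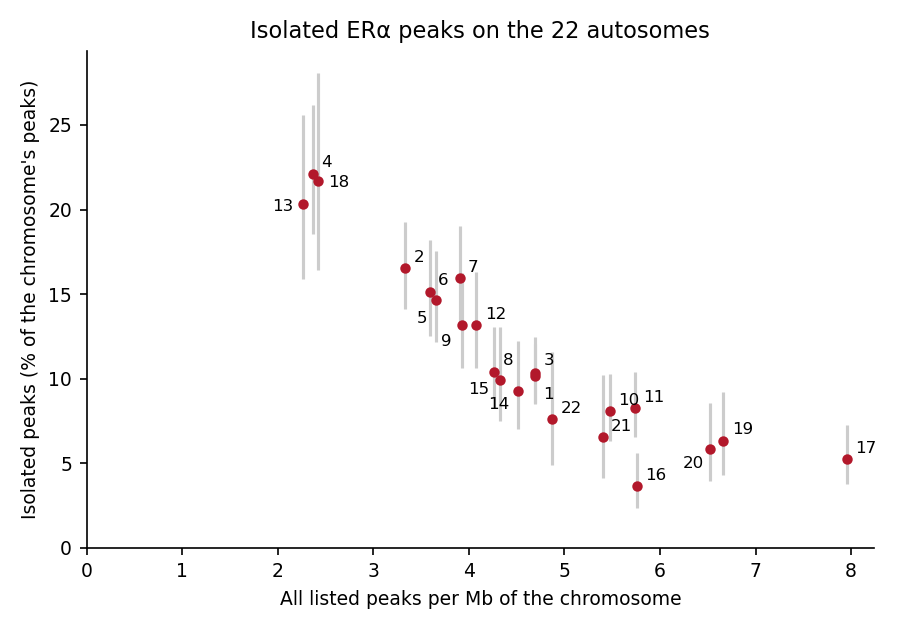
Isolated peaks as a share of the peaks of each autosome (%, points with Wilson 95% intervals in grey, labelled by chromosome) against all listed peaks per Mb. Chromosomes 4, 18 and 13 lie at 20.3 to 22.1%, and chromosome 16 lies lowest at 3.65%.

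The lower score of isolated peaks was seen on most chromosomes separately. Their median score was below that of the other peaks on 20 of 22 autosomes, and on 11 its whole interval lay below the median of the others. The widest gap was on chromosome 18, with 89.5 against 177.1. The exceptions were chromosome 13, with 132.9 (85.7 to 191.4) against 119.4, and chromosome 16, with 150.6 (76.1 to 310.8) against 139.7, and both intervals include the other median. The median width was lower on 21 of 22 autosomes, the exception being chromosome 16 with 542 against 538 bp. On chromosomes 19 and 21, with only 25 and 17 isolated peaks, none reached 1000, and their highest scores were 887.59 and 920.34. Over all autosomes 3.59% of isolated peaks did, so nothing is read from these counts of 0.

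The wider surroundings of isolated peaks were seldom empty. Within 1 Mb on either side an isolated peak had a median of 5 other peaks, against 15 for the others, a difference that the rule itself favours by clearing the nearest 200 kb. No other peak was found there for 93 isolated peaks, and 351 had 10 or more. The isolated peaks with 10 or more such peaks had a median score of 97.9 (87.7 to 110.1), and those with 1 or 2 had 93.0 (81.6 to 102.6). Other peaks with 10 or more had 140.1 (135.3 to 144.7), and with 5 to 9 they had 116.6 (110.7 to 125.6), against 93.2 (84.1 to 109.4) for isolated peaks with 5 to 9. Isolated peaks had the lower median in each of the 4 classes where both kinds occur. The intervals overlapped at 1 or 2 peaks, where the others had 116.2 (97.8 to 137.8), and at 3 or 4. The class of 10 or more has no upper limit, so density within it was not matched.

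The distance to the nearest neighbour had a median of 342.3 kb (324.2 to 354.7) among isolated peaks, and the distance to the farther one a median of 791.9 kb. In 402 cases both neighbours were over 500 kb away, and in 91 both were over 1 Mb away. Of the 5 most isolated peaks, 3 scored under 100, against 52.0% of all isolated peaks, so nothing is read from this count. The most isolated, chr2:91745149-91745539, stood 3254.3 kb from its nearest neighbour with a score of 51.67. Next were chr4:32062444-32062825 at 3192.5 kb with a score of 57.79, and chr18:37103125-37103720 at 3183.4 kb. This peak on chromosome 18 scored 1666.25, which ranks it 732 of 12355, and it was 596 bp wide. The others were chr11:23105236-23105567 at 2969.6 kb with a score of 53.32 and chr6:78361609-78361985 at 2366.9 kb with 213.63. These distances may include unsequenced stretches, so a long one is not read as an absence of binding.

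Of the 1393 isolated peaks, 970 (69.6%) had an isolated peak as a direct neighbour and 423 did not, against 13.9% of the other peaks. The rule favours this, because a direct neighbour of an isolated peak already has over 200 kb free on 1 side, so nothing is read from it. There were 771 uninterrupted runs, and the longest, 4 of them, held 8 isolated peaks each. On chromosome 13 they spanned 64119660 to 73708127 (9.59 Mb, median score 231.1) and 20595578 to 24063035 (3.47 Mb, median 152.1). The others were on chromosome 3 from 112958476 to 119817986 (6.86 Mb, median 169.2) and on chromosome 5 from 161456418 to 163945475 (2.49 Mb, median 85.3). The median scores by the number of isolated neighbours had overlapping intervals: 98.7 (89.4 to 108.9) with no isolated neighbour, 92.3 (84.4 to 101.4) with 1 and 93.4 (79.6 to 109.4) with 2.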

How the data were processed

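ERα ChIP-seq was measured in 1 library against 1 input library of T47D cells. The deposited peak list gives positions and a score from the authors' peak caller for each peak, and the peak names carry the MACS prefix, per the file. Per the submitters' processing notes, hg19, HOMER, Bowtie 0.12.9 and CASAVA 1.8 were used, in roles not given. The caller's threshold, the scale of the score, duplicate handling and read depth are not stated in any source at hand. These choices decide which weak peaks were listed, and so which peaks count as neighbours. On 0 autosomes did a peak end past the hg19 chromosome (12 for GRCh38, 16 for hg18; lengths from GenomeInfoDb 1.38.1).

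Centres were midpoints, and printed starts count from 1. Shares carry Wilson 95% intervals and medians exact binomial ones. With 1 library of each kind, no test was run. The isolation rule was tested on simulated data. Peaks named are the 10 highest-scoring and 5 most isolated members, 3 on each side of 200 kb, and any strong member. The 2 widest members, the 3 strong peaks nearest to isolation, the merged units and the longest runs were named after their values were seen. The members and this rule were chosen with earlier results of these data known. Alternatives changed the distance, the neighbours counted, merging and the chromosomes. Planned motif and gene-start comparisons were not run, because no hg19 sequence or annotation was used here. Software was R 4.3.3 and Python 3.11.15 with SciPy 1.17.1, pandas 2.3.3, NumPy 2.4.6 and matplotlib 3.10.9.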

Additional observations from a re-analysis of the deposited data

How the results depend on the processing

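Each of 6 results was recomputed under 10 alternatives, of which the 50 kb distance, the addition of chromosome X, the removal of end peaks and the merging within 2 kb were chosen after seeing the data. The median score and the median width of isolated peaks were below those of the other peaks in 10 of 10 alternatives each. Isolation distances of 50, 100 and 500 kb gave 3938, 2558 and 412 isolated peaks, by construction, or 31.9%, 20.7% and 3.33% of the autosomal list. The share was 17.5% when only peaks of at least 100 were kept (a score difference of -79.0 and a width difference of -69.5 bp), 17.5% with merging within 10 kb (width difference -90 bp), 13.7% with merging within 2 kb and 10.7% without chromosomes 4 and 13. At 50 kb the score difference was -53.2. At 500 kb the width difference was -101.5 bp and 34.2% of the isolated peaks reached the median score. The share of strong peaks went from 0 to 0.787% with peaks of at least 100 and to 0.692% with merging within 10 kb. Over all the peaks of at least 100, 265 of 7260 were strong. With merging within 10 kb, 0.920% of the single peaks and 10.9% of the groups that were not isolated were strong. The 2.14% of all autosomal peaks was counted before filtering or merging and is not the matching share for either. No paired analysis was possible because the ChIP and the input each have a single library. The motif and gene-start results and their alternatives were not run. One ChIP library of unknown depth gives no error for any peak.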

Other observations

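Chromosome X, which the rule leaves out, held 59 isolated peaks among its 292 (20.2%, Wilson 95% interval 16.0 to 25.2%). Their median score was 116.6 (exact binomial 95% interval 80.9 to 159.8), against 182.9 for the other peaks of that chromosome, and their median width was 397 bp. On X, 2 isolated peaks scored 1000 or more, the highest 1209.23, and 0 were strong. Among the 1393 autosomal isolated peaks 3.59% reached 1000 and 0 were strong, so nothing is read from these small counts.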
